A study of Rattus norvegicus with 9 samples.

Results

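The tumour necrosis factor (TNF) family members described here are 10 genes of the 28343 in the table of gene counts from sorted rat retinal microglia. They are 5 ligands (Tnf, Tnfsf9, Tnfsf13, Tnfsf13b and Tnfsf18), 3 receptors (Tnfrsf1a, Tnfrsf1b and Cd40) and 2 TNF-induced genes (Tnfaip2 and Tnfaip3). They were chosen by name, as members of the family. The rule names no measured value, but the choice was made with earlier results of these data known. Of these, 9 passed the filter on low counts and were tested among 11748 genes. The tenth, Tnf, had too few counts.

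The libraries came from Dark Agouti rats, an inbred strain. At 8 to 10 weeks of age and after 12 hours of fasting, the diabetic group received streptozotocin, a toxin of the insulin-producing beta cells, at 55 mg/kg, and the control group received citrate buffer. Insulin (2 units) was given to diabetic rats whose blood glucose exceeded 30 mmol/l. Whole retinas were dissociated with papain 4 weeks later, and cells carrying CD11b were collected by flow cytometry, a gate that also admits blood-derived and border myeloid cells. There were 5 control libraries (numbered 1, 3, 4, 5 and 6) and 4 diabetic libraries (1, 2, 4 and 5). The labels do not say whether a library is 1 rat or pooled, nor the sex, so p-values measure the spread between libraries.

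TNF is made as a membrane protein, cut loose by the protease ADAM17, and acts through TNFR1 (Tnfrsf1a), found on most cells, and TNFR2 (Tnfrsf1b), found mainly on immune and endothelial cells. Receptor binding assembles a complex of adaptors and ubiquitin ligases that frees the transcription factor NF-kappaB, which then induces cytokines and also its own brakes, among them the ubiquitin-editing enzyme A20 (Tnfaip3). In the retina, microglia are a known source of TNF. The other ligands of the set are known mostly for costimulating lymphocytes (Tnfsf9, also called 4-1BB ligand, and Tnfsf18, GITR ligand) or for B-cell survival (Tnfsf13, APRIL, and Tnfsf13b, BAFF).

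Promoter sequences were available for 8 of the 10 members (all but Tnfsf9 and Cd40) from RefSeq on the build GRCr8, as 300-base windows from 250 bases before to 50 bases after the annotated start. The windows were searched on both strands for an NF-kappaB-like motif (GGNNTTTCC), the AP-1 motif TGANTCA and the TATA box TATAAA. The NF-kappaB-like motif and the TATA box were chosen after these windows, and matches to other forms of the NF-kappaB motif, had been looked at. Tnfaip3 was the 1 member of the 8 with the NF-kappaB-like motif, which 6.05% of 33469 promoters of this length hold. It had 2 matches, both on the strand opposite to the gene, whose first printed bases lie 67 and 55 bases before the start. The AP-1 motif was in Tnfaip3 and Tnfrsf1b and in 7.33% of all promoters. The TATA box was in Tnf and Tnfsf18, 46 and 42 bases before the start, and in 14.2% of all promoters. The 250 bases before the start of the 3 members with an NF-kappaB-like motif or a TATA box are shown 5′ to 3′ on the gene's strand, with those matches in capitals. They are Tnfaip3 (chr1:15543980-15544229, minus strand), Tnf (chr20:3626435-3626684, plus strand) and Tnfsf18 (chr13:76366603-76366852, plus strand). A match is a description of the letters, not a bound site.
Tnfaip3: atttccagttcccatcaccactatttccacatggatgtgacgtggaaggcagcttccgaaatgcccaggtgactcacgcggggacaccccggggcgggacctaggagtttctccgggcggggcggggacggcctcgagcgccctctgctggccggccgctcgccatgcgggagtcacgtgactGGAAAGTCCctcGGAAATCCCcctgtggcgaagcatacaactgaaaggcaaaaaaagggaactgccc
Tnf: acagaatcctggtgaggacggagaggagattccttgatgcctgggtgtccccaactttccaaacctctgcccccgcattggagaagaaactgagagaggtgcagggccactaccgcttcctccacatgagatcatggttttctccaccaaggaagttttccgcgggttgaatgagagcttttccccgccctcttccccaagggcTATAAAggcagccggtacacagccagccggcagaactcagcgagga
Tnfsf18: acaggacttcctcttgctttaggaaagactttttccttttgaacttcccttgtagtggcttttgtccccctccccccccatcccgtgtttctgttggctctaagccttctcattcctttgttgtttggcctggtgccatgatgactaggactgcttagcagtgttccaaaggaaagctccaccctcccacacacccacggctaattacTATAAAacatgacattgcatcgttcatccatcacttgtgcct

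Total counts ranged from 9156591 to 11332823 in control and from 6228756 to 9629829 in diabetic libraries. Normalised read counts are given as CPM (a count relative to all counts of its library) and use TMM-scaled library sizes. Markers of microglia took 2.88% to 4.02% of the counts in control and 3.54% to 3.85% in diabetic libraries, led by Csf1r, the receptor that microglia need to survive. Siglech was the 1 of 14 microglia markers in the table with no counts. Blood and border myeloid markers took 0.0453% to 0.0840% in control and 0.0806% to 0.160% in diabetic libraries. Among their 10 tested genes, 8 had an unadjusted p below 0.05 in the direction of higher in diabetic, against 8.94% of all tested genes, and none passed the adjusted threshold. Ccr2 and Lcn2 had no counts in any library. Of 11 tested inner retinal neuron markers 6 had an unadjusted p below 0.05 toward higher in diabetic (median log2 fold change 0.99), with a share of 0.00502% to 0.00968% in control and 0.00732% to 0.0229% in diabetic libraries. Of 11 tested vascular markers 10 were below 0 (median -1.42), where 50.3% of all tested genes were above 0. An unadjusted p below 0.05 toward lower was found for 3 of them, beside 10% of all tested genes. Their shares were 0.0183% to 0.0402% in control and 0.0173% to 0.0260% in diabetic libraries, with the 2 highest in controls 1 and 3. Cldn5 had 609 and 317 counts in controls 1 and 3. It had 18, 2 and 1 in controls 4, 5 and 6, and 3 to 93 in diabetic libraries. Tagln was highest in control 6, with 45 counts. In such sorted bulk samples fewer cells of a type and less RNA per cell cannot be told apart, and the part of these cells in the members' values was not tested. The 13 lymphocyte markers took 0.0768% to 0.0996% over all 9 libraries, nearly all of it Cd4, which rat myeloid cells also express. Cd3d and Cd3g of the T-cell receptor complex, the B-cell gene Ms4a1 and Nkg7 had no counts. Others of the list had some: Cd8a had 87 counts in control 3 and 0 to 10 in every other library. Cd79b had 3 to 16 counts in a library, and Gzmb had 11 counts in control 1. Genes known to respond to tissue dissociation and sorting (such as Fos, Jun and Egr1) took 0.328% to 2.25% of the counts in control libraries, with the 2 highest values in controls 4 and 6 (1.87% and 2.25%), and 0.971% to 1.63% in diabetic libraries. Controls 4 and 6 stand apart in most of what follows, so the members and the lists that rest on them are also given without them. That leaves 3 controls, and all 16 tested dissociation-response genes then had a log2 fold change above 0 (median 1.27), beside 9 of 16 with all libraries.

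No member differed between diabetic and control libraries past the threshold of 0.05 on the p-value adjusted over all 11748 genes (edgeR quasi-likelihood test), and no member had an unadjusted p below 0.05 (DESeq2 and limma-voom also called 0 members, where they called 4.88% and 0.034% of all genes tested). Over all tested genes 8 passed (0.0681%), 5 of them higher (0.0426%) and 3 lower (0.0255%) in diabetic libraries, and 18.9% had an unadjusted p below 0.05. No member's diabetic libraries lay wholly outside the range of its controls, against 8.44% of all tested genes (4.27% higher and 4.16% lower). Of the 9 tested members 2 had a log2 fold change above 0, where 50.3% of all tested genes did. Their median log2 fold change was -0.28, beside 0.0017 for all tested genes. Without controls 4 and 6 all 9 were above 0 with a median of 0.24, where 49.4% of the 11902 genes then tested were above 0. Controls 4 and 6 were the 2 highest libraries for 6 of the 9 members. Leaving them out therefore by itself raises the log2 fold change of those 6. No member was called in that fit, and 2, Tnfsf9 and Tnfrsf1a, had an unadjusted p below 0.05 in the direction of higher in diabetic (7.2% of all genes tested). The authors' deposited table lists the same 9 members, none with an adjusted p below 0.05, where 2.1% of its 12069 genes are below it. Tnfsf18 had the lowest adjusted p of the members in the authors' deposited table (0.138, unadjusted p = 0.00726, log2 fold change -2.60). Tnfaip2 followed (0.287, unadjusted p = 0.0358, log2 fold change -1.01). Both unadjusted values are below 0.05, where the quasi-likelihood test gave no member such a value.

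**Figure D1:**
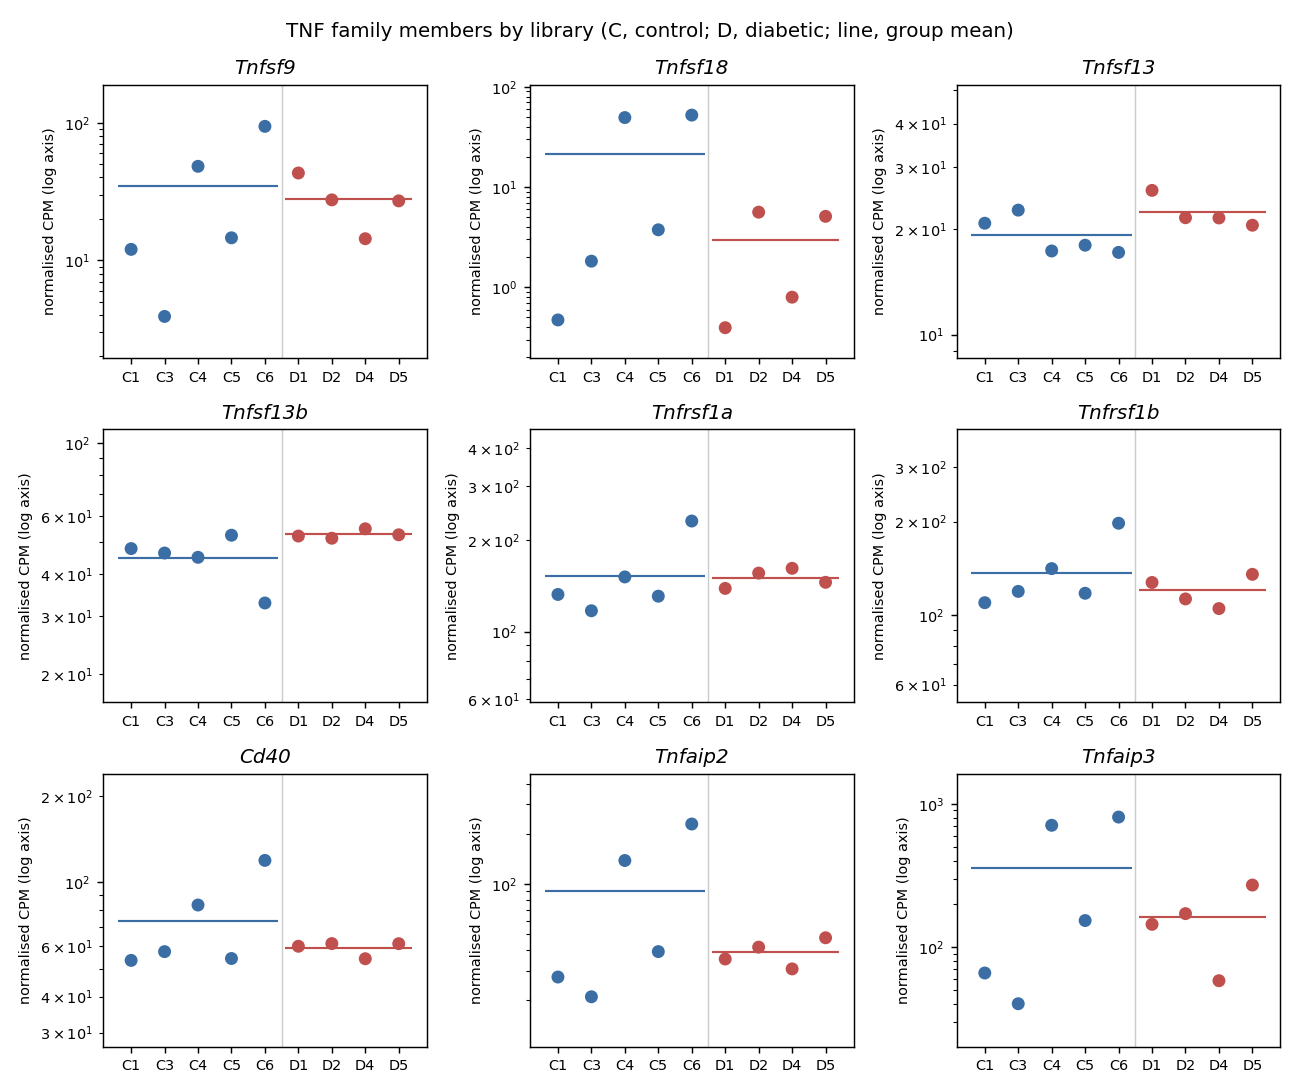
Normalised CPM (log axis) of the 9 tested members in each of the 5 control (blue) and 4 diabetic (red) libraries, with a line at the group mean. Controls 4 and 6 are the 2 highest libraries for Tnfsf9, Tnfsf18, Tnfrsf1b, Cd40, Tnfaip2 and Tnfaip3, and the 2 lowest for Tnfsf13 and Tnfsf13b.

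The spread among the controls was wide for some members and narrow for others. For 6 of the 9 tested members, controls 4 and 6 were the 2 highest of the 9 libraries, and for another 2 members they were the 2 lowest, where 14.3% and 12.5% of all tested genes had that order. The remaining member, Tnfrsf1a, was highest in control 6 but not second in control 4. The ratio of the highest to the lowest control ran from 1.32 for Tnfsf13 to 111 for Tnfsf18. Among the diabetic libraries it ran from 1.07 for Tnfsf13b to 14.2 for Tnfsf18. How much of this order came with the response to dissociation was not tested.

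Of the ligands, Tnfsf9 is the 4-1BB ligand (Rnor6 chromosome 9, 9909948 to 9912276, minus strand). It was at 12.0, 3.91, 48.2, 14.6 and 94.1 CPM in controls 1, 3, 4, 5 and 6, and at 43.1, 27.5, 14.4 and 27.0 CPM in diabetic libraries 1, 2, 4 and 5. Every diabetic library lay within the control range, which spanned 24.1-fold. The group means were 34.6 ± 37.3 CPM (SD, n = 5) and 28.0 ± 11.8 CPM (SD, n = 4), and the log2 fold change was -0.28 (SE 0.90, 95% interval -2.05 to 1.48, quasi-likelihood adjusted p = 0.883). The direction of Tnfsf9 turned with the libraries used: without controls 4 and 6 the log2 fold change was 1.47 (adjusted p = 0.275), and without control 6 alone 0.53 (adjusted p = 0.760). Its known receptor, Tnfrsf9, was nearly absent from these cells, with at most 4 counts in a library.

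Tnfsf18, the ligand of GITR, lies on chromosome 13 (79378733 to 79388498, plus strand). It had 5, 21, 459, 35 and 405 counts in controls 1, 3, 4, 5 and 6, and 4, 55, 5 and 51 counts in the diabetic libraries 1, 2, 4 and 5. In CPM these were 0.473, 1.82, 49.4, 3.75 and 52.3 against 0.395, 5.62, 0.797 and 5.11. Controls 4 and 6 were thus far above the other 7 libraries, among which control and diabetic values overlapped. Its spread within groups was among the widest of all tested genes: 99.9% of the tested genes had a lower SD of log2 CPM among controls, and 99.8% among diabetic libraries. The fitted log2 fold change was -2.79 (SE 1.73, 95% interval -6.18 to 0.59, quasi-likelihood adjusted p = 0.346), and 0.59 without controls 4 and 6 (adjusted p = 0.819). The receptor of this ligand, Tnfrsf18, had at most 4 counts in any library.

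Tnfsf13 and Tnfsf13b had the narrowest control ranges of the members. Tnfsf13 encodes APRIL, a ligand of the receptors BCMA and TACI on B cells and plasma cells (chromosome 10, 56286887 to 56289952, minus strand). It was at 20.8, 22.7, 17.3, 18.0 and 17.2 CPM in the controls and at 25.8, 21.6, 21.5 and 20.5 CPM in the diabetic libraries. Diabetic 1 was above every control, and the other 3 diabetic libraries were in the upper part of the control range. Its means were 19.2 ± 2.43 CPM (SD, n = 5) in controls and 22.4 ± 2.35 CPM (SD, n = 4) in the diabetic group. Its log2 fold change was 0.22 (SE 0.15, 95% interval -0.067 to 0.50, quasi-likelihood adjusted p = 0.384).

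Tnfsf13b encodes BAFF, the B-cell survival factor that myeloid cells are known to make (chromosome 16, 85275678 to 85306366, minus strand). Its controls were at 47.9, 46.5, 45.1, 52.6 and 32.8 CPM and its diabetic libraries at 52.3, 51.5, 55.0 and 52.8 CPM. The diabetic libraries were tightly grouped around the highest control, and 1.23% of tested genes had a lower SD of log2 CPM among them. The low control was number 6. The means were 45.0 ± 7.38 CPM (SD, n = 5) and 52.9 ± 1.51 CPM (SD, n = 4), and the log2 fold change was 0.23 (SE 0.14, 95% interval -0.038 to 0.50, quasi-likelihood adjusted p = 0.331). Without controls 4 and 6, the log2 fold change was 0.12 for Tnfsf13 and 0.10 for Tnfsf13b. Of the receptors of these ligands, BAFF receptor (Tnfrsf13c) was at 7.61 to 12.5 CPM in controls and 8.99 to 13.9 CPM in diabetic libraries. TACI (Tnfrsf13b) had 4 to 22 counts in a library and BCMA (Tnfrsf17) at most 1.68 CPM. These 3 receptors, Tnfrsf9 and Tnfrsf18 are named as the known partners of the ligands, after their values were seen.

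Tnf itself, the founding ligand, was nearly missing from the count table but not from the transcript assemblies. It had 2, 41, 4, 2 and 0 counts in controls 1, 3, 4, 5 and 6, and 2, 0, 0 and 0 counts in diabetic libraries 1, 2, 4 and 5. Control 3 alone held 41 of the 51 counts. On log2(CPM + 0.5) the difference of diabetic minus control was -0.86 (exact permutation test, two-sided, p = 0.198 over 126 splits, where 0.00794 is the smallest p possible). It was -1.76 with a pseudocount of 0.1 (exact p = 0.103) and -0.37 with 2 (exact p = 0.198). Without control 3 it was -0.35 (exact p = 0.257).

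The authors' assemblies, made per library by StringTie on the Rnor6 annotation, place Tnf at 2 annotated copies on chromosome 20. One copy spans 4855829 to 4858447 on the plus strand (ENSRNOG00000000837, 1687 exon bases) and the other 5189390 to 5192000 on the minus strand (ENSRNOG00000055156, 1679 exon bases), 330942 bases apart. The reference transcript was listed at both copies in 8 of the 9 libraries, all but control 3. Exon depth was taken as the read coverage of every assembled exon over the reference exon bases, averaged over these and summed over copies and strands. It was scaled to TPM units by a single factor per library (TPM, a value normalised for transcript length and for the library). It was 83.8, 36.0, 705, 108 and 659 TPM units in controls 1, 3, 4, 5 and 6, and 223, 206, 64.8 and 245 TPM units in the diabetic libraries 1, 2, 4 and 5. The library with the most Tnf counts, control 3, therefore had the lowest depth, and the library with the second highest depth, control 6, had 0 counts.

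The internal exons of both Tnf copies had nearly equal depth, with a ratio of 0.999 to 1.04 in 8 libraries. In control 3 it was 84.9 TPM units at the first copy and 13.6 at the other, a ratio of 6.25. The outer exons, which hold most of the bases, were less alike. Both were at 0 at the second copy in controls 5 and 6 and diabetic libraries 1, 4 and 5. In control 6 they were at 1015 and 354 TPM units at the first copy, and the depth over all exons was 560 against 98.4. These values sum both strands. On the gene's strand alone the depth over all exons was 98.5 against 98.4 in control 6, and 45.4 against 15.5 in control 1. In control 4 the longest exon was at 219 TPM units at both copies. Over all libraries Tnf had 0.0219 counts per TPM unit of summed depth. The other 8 members with a reference transcript had 18.4 (Tnfsf9) to 60.0 (Tnfsf18) counts per unit. How the authors' counting treated reads that align to both copies is not given in the sources used here, so the Tnf counts are uncertain. A read placed at both copies may also enter the summed depth more than once.

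**Figure D2:**
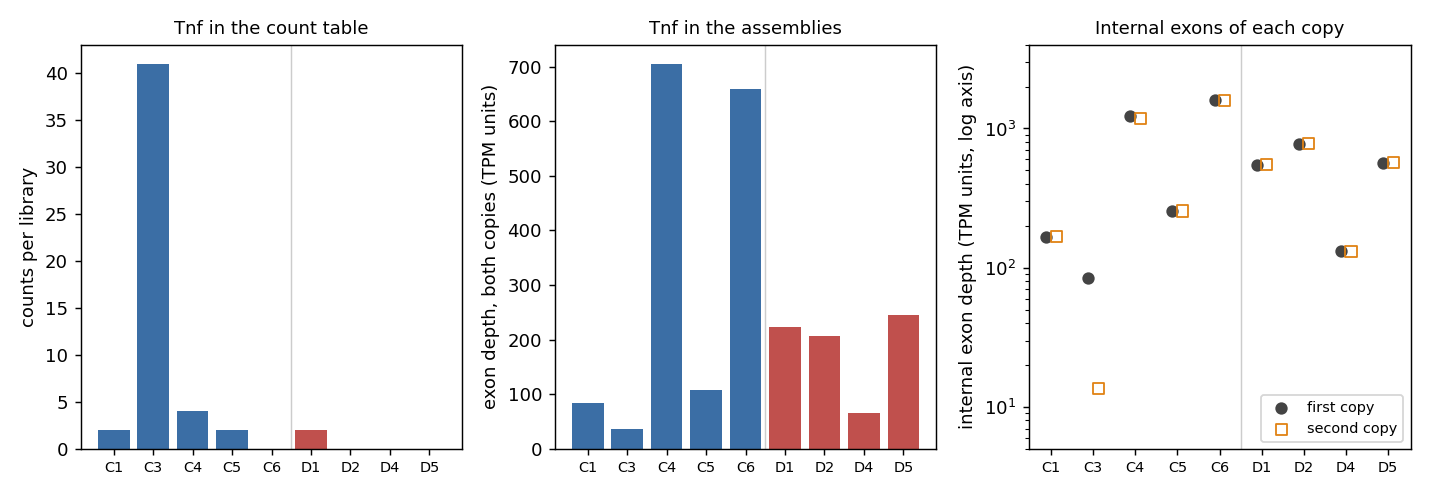
Tnf in each library (C, control; D, diabetic): counts in the gene table (left bars), exon depth over both annotated copies in TPM units (middle bars), and depth of the internal exons of each copy on a log axis (right, filled circles and open squares). Counts peak at 41 in control 3, where the exon depth is lowest at 36.0.

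By exon depth Tnf did not differ detectably between the groups. The means were 318 ± 333 TPM units in controls (SD, n = 5) and 185 ± 81.4 in diabetic libraries (SD, n = 4), and all diabetic values lay inside the control range. The difference of mean log2(depth + 1) was -0.072 (exact permutation test, two-sided, p = 0.960). It was -0.37 on the gene's strand alone (exact p = 0.690) and -0.25 from the reference transcripts alone (exact p = 0.825). Leaving out single libraries moved it from -0.63 (without control 3) to 0.43 (without control 4), and it was also above 0 without control 6 (0.41) and without diabetic 4 (0.37). Without both controls 4 and 6 it was 1.24 (exact p = 0.114, where 0.0286 is the smallest p possible). These measures were chosen after the count table had been seen. The libraries ran in nearly the same order for the exon depth of Tnf over both strands and the CPM of Tnfaip3. In both, controls 4 and 6 were the 2 highest and diabetic 5 came next. The 3 lowest were control 1, diabetic 4 and control 3. On the gene's strand alone, diabetic 5 (70.2 TPM units) lay below diabetic 1 (164), diabetic 2 (106) and control 5 (77.0). The share of dissociation-response genes was likewise highest in controls 6 and 4 and diabetic 5, and lowest in control 3. A link between the 2 genes was not tested.

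The TNF receptors varied much less than the induced genes. Tnfrsf1a, which encodes TNFR1 (chromosome 4, 157864969 to 157877633, plus strand), was at 132, 117, 151, 131 and 231 CPM in the controls and at 139, 156, 161 and 145 CPM in the diabetic libraries. Control 6 stood highest, and the diabetic libraries lay above controls 1, 3 and 5. Its log2 fold change was -0.021 (SE 0.18, 95% interval -0.37 to 0.33, quasi-likelihood adjusted p = 0.960), with means of 152 ± 45.4 (SD, n = 5) and 150.2 ± 10.2 CPM (SD, n = 4). It was 0.18 without control 6 (adjusted p = 0.407) and 0.24 without controls 4 and 6 (adjusted p = 0.287), and its sign also turned with upper-quartile scaling (0.067) or none (0.12).

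Tnfrsf1b encodes TNFR2 (chromosome 5, 163136390 to 163167299, minus strand). It was at 109.9, 119, 141, 118 and 198 CPM in controls and at 128, 113, 105 and 136 CPM in diabetic libraries, again with control 6 the highest. The log2 fold change was -0.19 (SE 0.17, 95% interval -0.53 to 0.15, quasi-likelihood adjusted p = 0.535) and 0.048 without controls 4 and 6.

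Cd40, the receptor through which T-cell CD40 ligand activates antigen-presenting cells, lies on chromosome 3 (161519743 to 161534704, plus strand). It was at 53.5, 57.4, 83.4, 54.3 and 119 CPM in controls and at 59.9, 61.2, 54.2 and 61.2 CPM in diabetic libraries. The diabetic values were close together and near the 3 lower controls, while controls 4 and 6 were higher. The log2 fold change was -0.31 (SE 0.25, 95% interval -0.79 to 0.17, quasi-likelihood adjusted p = 0.464), and 0.095 without controls 4 and 6 (adjusted p = 0.698). Its ligand, Cd40lg, had no counts in any library.

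Both TNF-induced genes varied widely among the controls. Tnfaip3 encodes A20, which removes activating ubiquitin chains from the TNF receptor complex and so limits NF-kappaB (chromosome 1, 14402913 to 14412807, minus strand). It was at 65.9, 40.2, 707, 153 and 807 CPM in the controls, from 463 to 6575 counts, and at 144, 171, 58.2 and 271 CPM in the diabetic libraries. Both control 4 and control 6 were above every other library, and the diabetic values overlapped those of the other 3 controls. The means were 355 ± 372 CPM (SD, n = 5) and 161 ± 87.6 CPM (SD, n = 4). The log2 fold change was -1.14 (SE 1.08, 95% interval -3.25 to 0.98, quasi-likelihood adjusted p = 0.551), and 0.90 without controls 4 and 6 (adjusted p = 0.592).

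Tnfaip2, first found as a TNF-induced endothelial transcript and known for the outgrowth of membrane tubes between cells, has no reference transcript in the assemblies, so no position is given. It was at 27.5, 20.9, 138, 39.1 and 229 CPM in controls and at 35.3, 41.6, 30.8 and 47.3 CPM in diabetic libraries. The diabetic libraries were close together, whereas the controls differed 10.9-fold. Its log2 fold change was -1.22 (SE 0.86, 95% interval -2.91 to 0.47, quasi-likelihood adjusted p = 0.412), and 0.41 without controls 4 and 6 (adjusted p = 0.398). With the mean log2 CPM of the dissociation-response genes as a covariate, both induced genes were called lower in diabetic libraries. The values were then -0.94 for Tnfaip2 (quasi-likelihood adjusted p = 0.0179) and -0.81 for Tnfaip3 (adjusted p = 0.0258), and 12.2% of all tested genes were called in that fit.

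**Figure D3:**
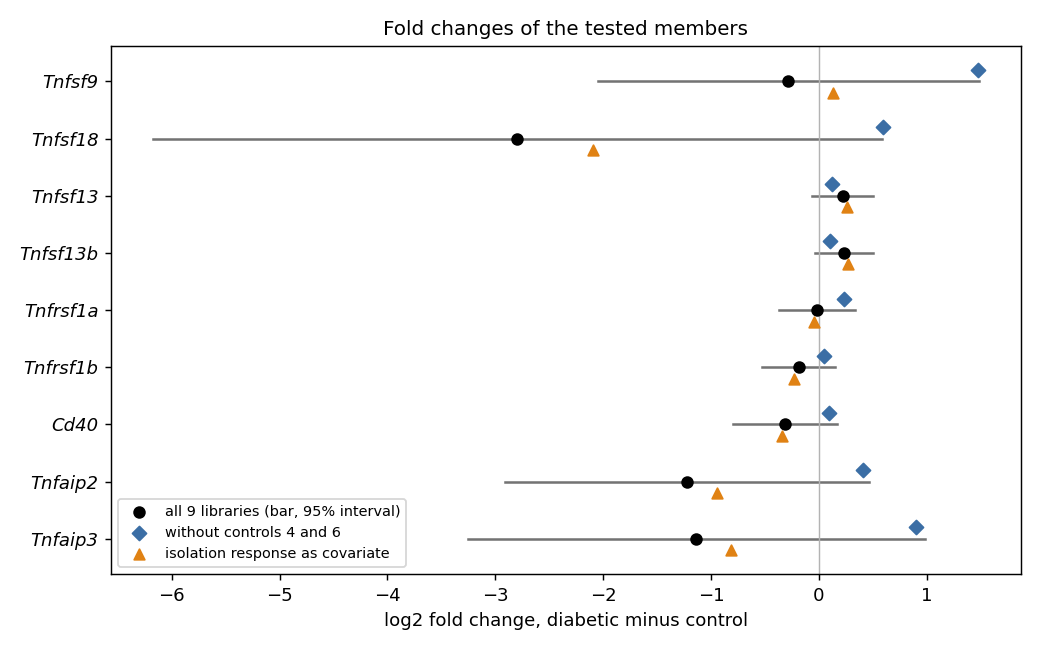
Log2 fold change of diabetic minus control for the 9 tested members: all 9 libraries (black circles, bars are 95% intervals), without controls 4 and 6 (blue diamonds) and with the dissociation-response genes as covariate (orange triangles). Every bar crosses 0, and without controls 4 and 6 every point lies above 0, from 0.048 (Tnfrsf1b) to 1.47 (Tnfsf9).

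Levels of different genes were compared only per length, on the exon depth in TPM units averaged over the 9 libraries. Tnf came first with 259 (36.0 to 705 over libraries), or 197 from its higher copy alone. Both values, like those of the other members, take both strands. On the gene's strand alone the summed depth of its copies ran from 36.0 (control 3) to 558 (control 4). Reads placed at both copies may enter that sum more than once. Tnfaip3 followed with 77.4 (11.7 to 232). Tnfrsf1a (40.1, range 33.7 to 49.0), Tnfrsf1b (31.8, 25.7 to 44.9) and Cd40 (26.8, 16.0 to 45.5) came next, and their ranges over libraries overlapped one another. Tnfsf9 (15.4, 2.33 to 45.7), Tnfsf13b (10.9, 5.77 to 17.0) and Tnfsf13 (7.43, 4.42 to 10.3) also overlapped. Tnfsf18 was last with 1.93, and its reference exons were assembled in controls 4 and 6 only. It is listed at 0 in the other 7 libraries. Every pair of neighbours in this order had overlapping ranges over the libraries.

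The likeness of 2 genes' patterns over the 9 libraries was taken as the mean absolute difference of log2 CPM after centring each gene on its own mean. It was 0.127 for Tnfrsf1b and Cd40, 0.151 for Tnfrsf1a and Tnfrsf1b, 0.163 for Tnfsf13 and Tnfsf13b, 0.482 for Tnfaip2 and Tnfaip3, and 0.493 for Tnfsf9 and Tnfaip2. Over all tested genes, the 3 nearest to Tnfaip3 were Csrnp1 (0.202), Nfkbiz, an NF-kappaB cofactor (0.235), and Plk2 (0.254). The 3 nearest to Tnfaip2 were Coq10b (0.101), Rnf19b (0.138) and Tsc22d2 (0.141). Tnfrsf1b was nearest to Oxsr1 (0.0548), Slc25a32 (0.0631) and Trpc6 (0.0813), and Cd40 to Asun (0.0806), Mafg (0.0810) and Arf6 (0.0869). A gene with little spread has small differences from many others, so these values give no ranking of members or pairs.

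The rest of the pathway was described with 7 lists holding 108 genes, of which 83 were tested. None was called. At an unadjusted p below 0.05, 2 were higher and 8 lower in diabetic libraries, beside 8.94% and 10% of all tested genes. The diabetic libraries lay wholly below the controls for 4 genes and wholly above for none, beside 4.16% and 4.27% of all tested genes. The median log2 fold change was -0.21, with 27 above and 56 below 0. Without controls 4 and 6 it was 0.056, with 49 above and 35 below 0 among 84 genes tested, none of them called. With the dissociation-response covariate 22 of these genes were called, 2 higher and 20 lower in diabetic libraries, in a fit that called 12.2% of all genes tested.

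Of 13 other ligands 4 passed the filter on low counts and were tested, and Tnfsf8, Tnfsf11 and Cd40lg had no counts. Tnfsf4, the OX40 ligand, had the highest mean CPM of the other ligands (32.3 to 59.4 CPM over libraries, log2 fold change 0.14, quasi-likelihood adjusted p = 0.677). Tnfsf12, which encodes TWEAK, was at 24.6, 23.1, 25.5, 25.6 and 27.5 CPM in controls and at 27.2, 25.8, 35.7 and 36.7 CPM in diabetic libraries (log2 fold change 0.31, adjusted p = 0.241), and was the 1 tested ligand with an unadjusted p below 0.05. Lta and Ltb, the lymphotoxin genes, had at most 2 counts in a library. Of 23 other receptors 12 were tested, and none had an unadjusted p below 0.05. Tnfrsf21 (death receptor 6) was at 307 to 467 CPM in controls and 315 to 398 CPM in diabetic libraries (log2 fold change -0.21, adjusted p = 0.367). Without controls 4 and 6 its log2 fold change was -0.37 (quasi-likelihood unadjusted p = 0.00245, adjusted p = 0.147). Tnfrsf11a, the receptor RANK, was at 170 to 205 CPM and 155 to 200 CPM (log2 fold change -0.029, adjusted p = 0.898), while its ligand Tnfsf11 had no counts.

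All 21 genes of the receptor complex and its kinases were tested, with 17 log2 fold changes below 0 and a median of -0.11. In 3 of them, Chuk, Cflar and Map3k7, the unadjusted p was below 0.05 in the direction of lower in diabetic (named after their values were seen; adjusted p = 0.168, 0.229 and 0.257). The log2 fold change of Cflar was -0.19 in place of -0.72 without controls 4 and 6, and that of Chuk -0.22 in place of -0.43. That of Map3k7 changed little, to -0.52 from -0.55. Chuk encodes a kinase of the complex that frees NF-kappaB, and Ikbkb, its partner kinase, was at 176 to 190 CPM in controls and 164 to 199 CPM in diabetic libraries (log2 fold change -0.032, adjusted p = 0.859). Birc3, a ubiquitin ligase of the complex that is itself an NF-kappaB target, was at 12.5, 10.2, 311, 37.5 and 472 CPM in controls and at 17.9, 14.1, 14.4 and 40.3 CPM in diabetic libraries. Its controls 4 and 6 stood far above all other libraries, and the log2 fold change was -2.95 (quasi-likelihood adjusted p = 0.285). Without them it was 0.12 (adjusted p = 0.951). For 10 of these 21 genes, controls 4 and 6 were the 2 highest libraries.

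Among 9 tested genes of ubiquitin editing, Tax1bp1, an adaptor that brings A20 to its substrates, was lower in every diabetic library than in any control. Its controls were at 288, 318, 401, 295 and 421 CPM and its diabetic libraries at 247, 240, 260 and 285 CPM (log2 fold change -0.42, SE 0.15, quasi-likelihood adjusted p = 0.126). Itch, a ubiquitin ligase that acts with A20, had an unadjusted p below 0.05 toward lower (log2 fold change -0.42, adjusted p = 0.155), and Sharpin, of the linear ubiquitin ligase, toward higher (0.22, adjusted p = 0.242). Both are named after their values were seen. Otulin, which removes linear chains, was at 119 to 130 CPM in controls and 106 to 122 CPM in diabetic libraries (-0.10, adjusted p = 0.503).

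Of 9 tested genes that process TNF protein or its mRNA, the 2 main shedding proteases had groups that did not overlap. Adam17, the TNF-converting enzyme, was at 250, 236, 267, 248 and 248 CPM in controls and at 228, 208, 222 and 216 CPM in diabetic libraries (log2 fold change -0.19, SE 0.088, quasi-likelihood adjusted p = 0.215). Adam10, the related protease, was at 334, 351, 348, 427 and 303 CPM in controls and at 295, 281, 233 and 294 CPM in diabetic libraries (-0.35, SE 0.13, adjusted p = 0.142). Neither passed the adjusted threshold, and 4.16% of all tested genes had diabetic libraries wholly below the controls. Zfp36, which binds and destabilises Tnf mRNA, was at 1714, 782, 2973, 1216 and 4023 CPM in controls and at 2780, 3073, 2451 and 2944 CPM in diabetic libraries (0.39, adjusted p = 0.659). Its log2 fold change was 1.17 without controls 4 and 6 (adjusted p = 0.144).

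Of 25 known targets of TNF and NF-kappaB 24 were tested, and none had an unadjusted p below 0.05. The log2 fold change was below 0 for 22 of them, with a median of -0.97. This direction turned without controls 4 and 6: 21 of the 24 were then above 0 with a median of 0.34, beside 49.4% of all genes then tested. An unadjusted p below 0.05 toward higher in diabetic was found for 6 of them, beside 7.2% of all genes, and none was called. In the same fit all 16 tested dissociation-response genes were above 0, 7 of them with an unadjusted p below 0.05. For 22 of the 24, controls 4 and 6 were the 2 highest libraries, beside 14.3% of all tested genes. Leaving them out therefore by itself raises the log2 fold change of those 22. The summed share of counts of these targets was 0.400%, 0.265%, 1.86%, 0.489% and 2.86% in controls 1, 3, 4, 5 and 6, and 0.683%, 0.774%, 0.421% and 0.884% in diabetic libraries 1, 2, 4 and 5. Outside controls 4 and 6, the 3 controls were thus at 0.265% to 0.489%. The chemokine Ccl4 was at 503, 276, 3455, 536 and 6382 CPM in controls and at 894, 1202, 587 and 1590 CPM in diabetic libraries (log2 fold change -1.06, quasi-likelihood adjusted p = 0.583). Ccl3, a related chemokine, was at 331 to 5778 CPM in controls, with controls 4 and 6 the 2 highest, and at 730 to 1431 CPM in diabetic libraries (-0.92, adjusted p = 0.593). Without controls 4 and 6 the log2 fold changes were 1.28 for Ccl4 (quasi-likelihood adjusted p = 0.259) and 1.07 for Ccl3 (adjusted p = 0.255).

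Of the other genes named as TNF-induced proteins 4 of 5 were tested. Tnfaip1 was at 90.7, 85.9, 99.0, 99.9 and 83.8 CPM in controls and at 65.0, 73.5, 74.6 and 82.2 CPM in diabetic libraries, so that the groups did not overlap (log2 fold change -0.32, SE 0.12, quasi-likelihood adjusted p = 0.142). Tnfaip8l2, a negative regulator of immune signalling also called TIPE2, was at 164 to 363 CPM in controls and 274 to 336 CPM in diabetic libraries (0.14, adjusted p = 0.737). Its 2 lowest libraries were controls 4 and 6.

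**Figure D4:**
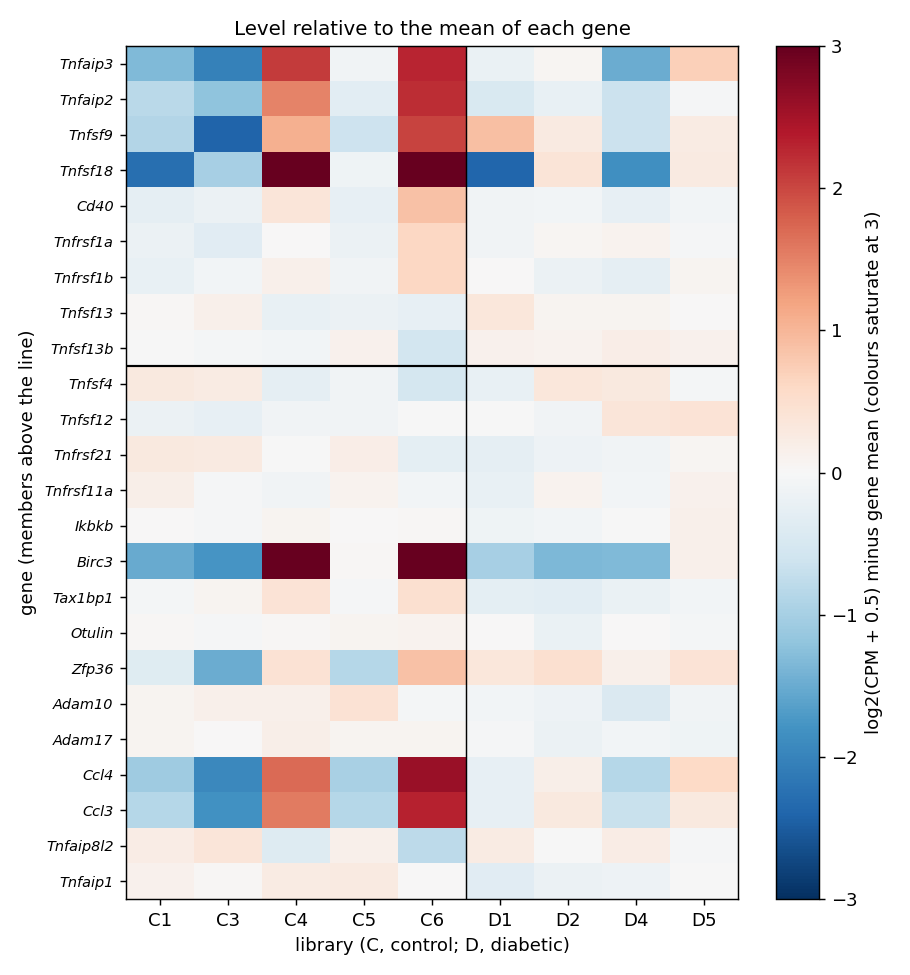
Log2(CPM + 0.5) of each library minus the gene's mean, for the 9 tested members (above the line) and the named genes of the pathway lists (below), controls left and diabetic right of the vertical line, with colours saturating at 3. Controls 4 and 6 are red for Tnfaip3, Tnfaip2, Tnfsf9, Tnfsf18, Birc3, Ccl3 and Ccl4, while Tax1bp1, Adam10, Adam17 and Tnfaip1 differ little between libraries.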

How the data were processed

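RNA-seq libraries of sorted retinal microglia, 5 control and 4 diabetic by their titles and treatment labels, were preamplified with a SmartSeq kit and made with Nextera XT, per the labels' protocols; no molecular identifiers are named, so counts are reads, and all libraries share 1 flow cell lane. The submitters' processing notes name bcl2fastq 2.18.0.12, TopHat2 2.0.14, StringTie 1.2.4, edgeR and Rnor_6.0. The authors deposited raw counts per gene symbol; the sources used here do not give the counting program, its strand setting or its treatment of multiply aligned reads. The authors' deposited table of the comparison holds, per gene, the log2 ratio of the groups, its p-value and the FDR. The transcript assemblies, per the file headers from StringTie on Rnor6, hold TPM values that the authors normalized within each library; their sums were 894290 to 912544.

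Genes were filtered (filterByExpr, minimum count 10, minimum total 15), scaled by TMM and tested without covariates with edgeR 4.0.16 (quasi-likelihood, robust) in R 4.3.3, with Benjamini-Hochberg adjustment over 11748 genes. SE is the size of the log2 fold change over the normal quantile of its p, and the 95% interval is built from it. The script was tested on simulated data. Tnf was tested by exact permutation over libraries (Python 3.11.15, scipy 1.17.1; pseudocount 0.5 for CPM, 1 for TPM). Library pairs differed beyond sampling noise, so none was counted as a duplicate. The 10 members and all lists were chosen with earlier results of these data known. Named are all members, and of each pathway list the genes called, the 2 with the highest mean CPM and up to 3 whose groups do not overlap; of markers, the 1 highest per list; and the 3 nearest genes of 4 members. Others, such as the ligands' receptors, genes with an unadjusted p below 0.05 and markers at 0, are named after their values were seen. Alternatives were other scalings and filters, DESeq2 1.42.0, limma-voom 3.58.1, a replicate block, a dissociation-response covariate, and leaving out libraries.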

Additional observations from a re-analysis of the deposited data

Results flagged for a closer look

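Of 22 groups of 4 or 5 libraries examined for a lone value (chance marks about 1 in 20), 2 had one, both for Tnf in the count table. Control 3 was at 3.56 CPM, where the other controls were at 0 to 0.430 CPM. Diabetic 1 was at 0.198 CPM, which is 2 counts, where the other diabetic libraries were at 0. In control 3 the depth of the internal exons also differed between the copies of Tnf (ratio 6.25).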

How the results depend on the processing

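Over all genes, the 8 called became 31 with upper-quartile factors, 29 with no normalization factors, 42 with no filter on low counts, 5 with a filter of CPM above 1 in at least 3 libraries, 583 with the DESeq2 Wald test, 4 with limma-voom, 0 without controls 4 and 6, and 1429 with the dissociation-response covariate. Leaving out 1 library gave 0 (without control 4, diabetic 1 or diabetic 4) to 75 (without control 1). It gave 1 without control 3 or control 5, and 2 without diabetic 2. The replicate block gave 0 called genes. Correlations between same-numbered libraries, taken on deviations from the group mean, were 0.201, -0.114 and 0.0156 for numbers 1, 4 and 5. Same-numbered libraries matched best only for number 1. So few values cannot settle whether the numbers pair the libraries.

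With the covariate 2 members and 22 genes of the pathway lists were called, and 0 under every other alternative; the cause was not tested. Of 171 member fold changes under 19 alternatives, 152 kept their direction and side of the threshold. Without controls 4 and 6 the log2 fold change turned to 1.47 for Tnfsf9, 0.59 for Tnfsf18, 0.24 for Tnfrsf1a, 0.048 for Tnfrsf1b, 0.095 for Cd40, 0.41 for Tnfaip2 and 0.90 for Tnfaip3. Tnfsf9 also turned with limma-voom (0.57), the replicate block (0.39), the covariate (0.13) and without control 6 (0.53). Tnfrsf1a turned with upper-quartile factors (0.067), no factors (0.12), limma-voom (0.025) and the replicate block (0.10), and without control 6 (0.18) or diabetic 1 (0.016), and leaving out 1 library gave -0.10 (without control 3) to 0.18. Tnfsf13 (0.12 to 0.33) and Tnfsf13b (0.10 to 0.33) kept their direction under all 19, with adjusted p of 0.179 to 0.754 and 0.136 to 0.741. Leaving out 1 library gave -1.51 to -0.58 for Tnfaip3, -1.48 to -0.53 for Tnfaip2, -3.28 to -2.17 for Tnfsf18 and -0.41 to -0.070 for Cd40. The Tnf count difference ran from -1.10 to -0.35 without single libraries (exact permutation p = 0.0571 to 0.286), and its exon depth difference turned from -0.072 to 1.24 without controls 4 and 6, a setting added after seeing the data. The 5 and 4 libraries, and the small counts of Tnf and of Tnfsf18 outside controls 4 and 6, limit the precision.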
